A study of Mus musculus with 12 samples.

Results

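Transcripts of 39 genes of DNA replication and S phase were followed in 12 RNA sequencing libraries of mouse colonic myofibroblasts, out of 24411 gene symbols in the table. The genes were chosen by name, as components of replication origins, the replicative helicase, the polymerases and their clamp, nucleotide supply, S phase entry and chromatin copying, and all 39 were found and tested. Knockout libraries (6) came from primary myofibroblasts of TNFR1-/- mice, and control libraries (6) from heterozygous control (TNFR1-/+) mice, which carry the deletion in 1 copy. All mice had a C57BL/6 background and were 16 weeks old, and the cells were grown from the distal colon, used at passage 6 to 8 in medium with serum, insulin and epidermal growth factor, and left untreated. Where the deletion lies in the gene is not given in the labels. RNA was taken 5 days after seeding in Matrigel. The labels do not say how many mice or cultures the libraries came from, so p-values measure the spread between these libraries, which may be technical. The comparison is between cells labelled as lacking tumor necrosis factor receptor 1 and cells labelled as heterozygous.

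A cell that is to divide first licenses its replication origins: the origin recognition complex, with CDC6 and CDT1, loads the MCM2 to MCM7 ring onto DNA in G1. At S phase entry, cyclin E with CDK2 and the E2F transcription factors switch on the genes of the replication machinery, CDC45 and the GINS complex join the ring to make the active helicase, and DNA polymerases alpha, delta and epsilon copy the strands with the clamp PCNA and its loader RFC. Ribonucleotide reductase, thymidylate synthase and thymidine kinase supply the deoxynucleotides. In fibroblasts these transcripts are low in resting cells and high in cycling cells. In RNA from whole cultures, a larger share of cells in S phase and more transcript per cell cannot be told apart.

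Library totals were 6543013 to 9937008 counts in the knockout and 11890729 to 16458689 in the control group. Tnfrsf1a, the targeted gene, was at 40.6 to 46.1 CPM (the count divided by the scaled library size, in the usual units) in the knockout and 54.9 to 81.3 CPM in the control libraries, without overlap; transcript was thus still counted in the knockout, and the loss of the receptor rests on the labels. Knockout 5 and 6 stood apart from knockout 1 to 4 over all tested genes (Spearman correlation 0.926 to 0.927, against 0.989 to 0.997 among knockout 1 to 4), and control 6 stood apart from control 1 to 5 (0.952 to 0.954, against 0.996 to 0.998). Control 6 was closer to knockout 1 to 4 (0.968 to 0.976). Pairs within these sets differed by a chi-square per gene of 1.38 to 9.83 over all genes, which exceeds counting noise, and were kept as separate libraries. Over the 39 genes the same pairs were at 0.951 to 2.58, some of them at counting noise, so n = 6 may overstate the number of independent samples. Pairs in different sets of a group differed by 104.8 to 178.8 over all genes and by 16.5 to 239.2 over the 39 genes. The ribosomal RNA precursor Rn45s took 7.01% of the counts in knockout 5 and 8.25% in knockout 6, and 0.351% to 2.097% in the other 10. Fibroblast and myofibroblast markers summed to 30999 to 31550 CPM in knockout 1 to 4, but to 13056 and 12967 CPM in knockout 5 and 6, against 21356 to 31316 CPM in control libraries. Macrophage and leukocyte markers summed to 9.62 to 16.6 CPM in knockout and 21.2 to 28.4 CPM in control libraries. By the edgeR test described below, 0 of these 6 were higher and 3 lower, against 21.4% and 21.6% of all tested genes. Of the epithelial markers, Epcam, Cdh1, Krt8 and Vil1 had at most 10 counts in any library, as had Pecam1 of endothelial cells and Kit of interstitial cells of Cajal, while the epithelial list summed to 11.4 to 22.3 CPM in knockout and 6.79 to 18.4 CPM in control libraries. The endothelial list summed to 5.28 to 9.31 CPM in knockout and 6.36 to 10.5 CPM in control libraries, and the list for Cajal cells to 12.8 to 17.4 CPM in knockout 1 to 4, to 1.35 and 1.55 CPM in knockout 5 and 6, and to 0.435 to 8.65 CPM in control libraries. Enteric glia markers summed to 2.85 to 3.45 CPM in knockout 1 to 4 and to 0.830 and 0.207 CPM in knockout 5 and 6, against 4.35 to 5.96 CPM in control libraries. Of the 8 fibroblast and myofibroblast markers, 3 were called higher and 1 lower. Among tested markers, 1 of 2 endothelial and 1 of 2 enteric glia genes were lower. The 1 tested Cajal cell gene was higher, and 0 of 2 tested epithelial genes were called. Knockout 5 and 6, with the lowest fibroblast and enteric glia sums, are also the libraries in which the replication genes were highest. Their macrophage and leukocyte sums, 13.9 and 16.6 CPM, were above those of knockout 1 to 4 (9.62 to 13.8 CPM). The part of these differences in the results below was not tested.

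Of the 39 genes, 13 were higher in the knockout, none was lower, and 26 did not pass the test (quasi-likelihood test of edgeR, adjusted p under 0.05 by Benjamini-Hochberg over 12146 tested genes). Over all tested genes, 21.4% were called higher and 21.6% lower. At an unadjusted p under 0.05, 25 of the 39 were higher and 0 lower, against 25.9% and 25.3% of all tested genes. The number called higher was 21 with DESeq2 (24.1% of all tested genes), 7 with limma-voom (20.7%), 8 with the replicate number as a block in edgeR (15.4%), and 0 in edgeR when the libraries were summed into 4 sets (smallest adjusted p = 0.613), with 0 called lower in each. The median log2 difference (knockout minus control) was 0.77 over the 39 genes and 0.02 over all tested genes. The median over the 39 genes was 0.49 without knockout 5, 0.52 without knockout 6 and 0.04 without both. The 13 genes were Rrm2, Rrm1 and Tk1 of nucleotide supply, Ccne2 and Ccne1, Orc1, Orc6, Mcm4 and Mcm5 of origin licensing, Prim1 and Prim2 of primase, and Chaf1a and Uhrf1 of chromatin copying. Rrm2, Rrm1, Ccne2, Ccne1, Orc1, Mcm4 and Prim2 stayed called whichever single library was left out. The other 6 lost the call when knockout 5 or knockout 6 was left out (7 higher each), and some also without a control (8 to 11 higher). Among all tested genes, 2456 of 12355 were called higher without knockout 5 and 2494 of 12358 without knockout 6. With a control left out it was 2148 of 12151 (control 2) to 3092 of 12173 (control 6). Without both knockout 5 and 6, 8 genes were called higher and 5 lower, against 24.5% and 27.5% of all tested genes.

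The summed level of the 39 genes came to 952.4, 945.9, 967.9, 957.8, 2656 and 2697 CPM in knockout 1 to 6, against 905.7, 856.6, 895.6, 900.7, 842.3 and 828.1 CPM in control 1 to 6. Knockout 5 and 6 were far above the other 10 libraries, while knockout 1 to 4 lay just above the controls. In 38 of the 39 genes knockout 5 and 6 were the highest of the 12 libraries, a pattern that 26.6% of all tested genes showed. E2f1 was the exception. Of the lists described further on, 43 of 50 other replication genes and 33 of 35 mitosis genes showed the same pattern. So did 14 of 31 regulators of the G1 to S transition. In 6 genes (Rrm2, Rrm1, Ccne2, Ccne1, Orc1 and Mcm4) every knockout library was above every control library, as in 10.6% of all tested genes, and in 0 genes every knockout library was below (12.5% of all tested genes).

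**Figure D1:**
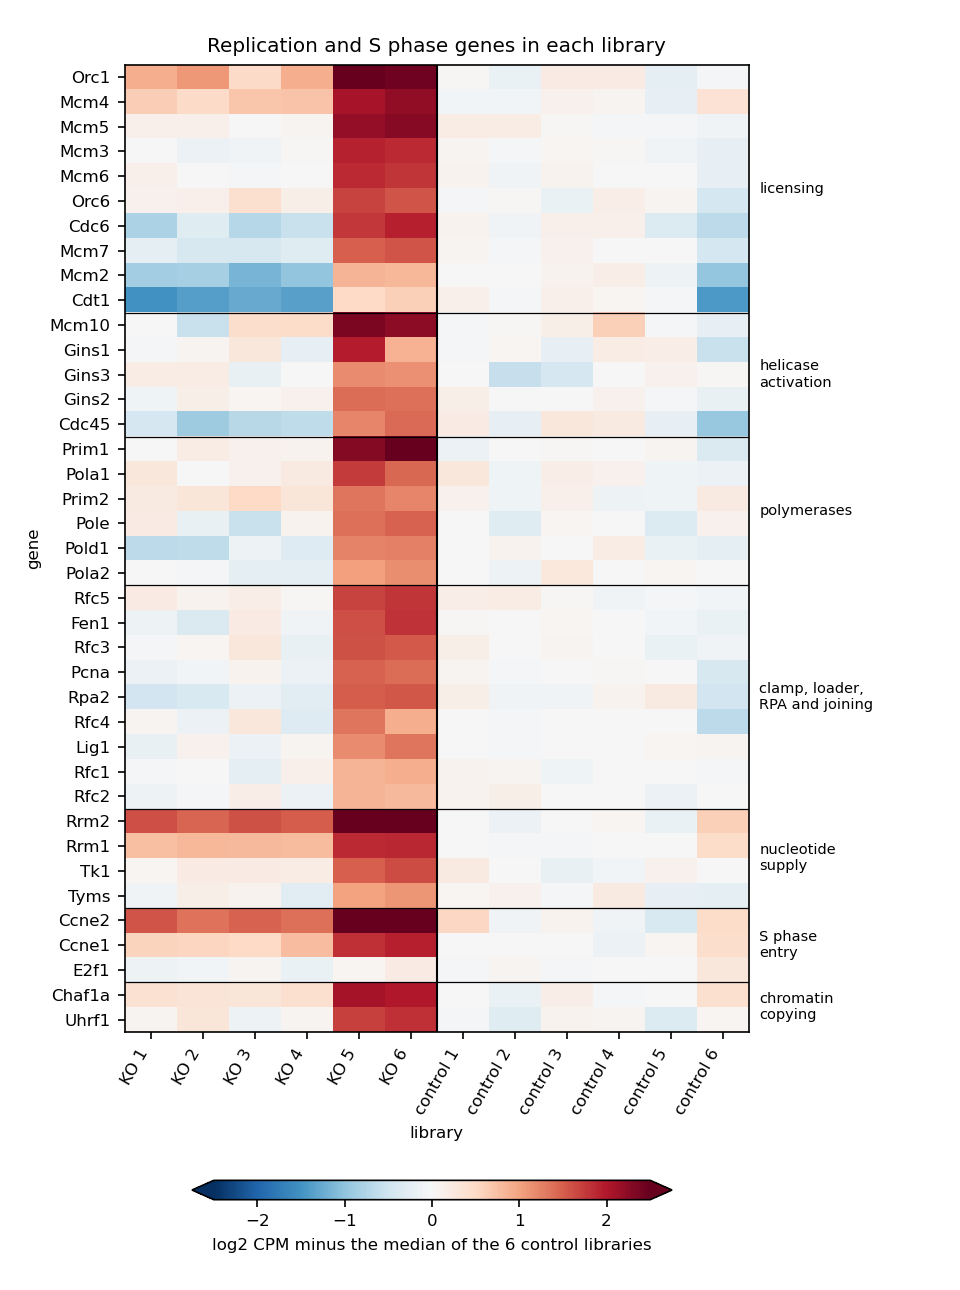
Each row is 1 of the 39 genes, grouped by role, and each column a library, with the 6 knockout (KO) libraries on the left and the 6 control libraries on the right. Colour gives the log2 CPM minus the median of the 6 control libraries, and the arrows of the colour bar mark values past its ends. Knockout 5 and 6 are the highest libraries in 38 of 39 rows, and Cdt1, Mcm2, Cdc6 and Cdc45 are blue in knockout 1 to 4 and in control 6.

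Of the 4 nucleotide supply genes, 3 rose and 1 did not pass, where 21.4% of all tested genes were called higher. Rrm2, the S phase subunit of ribonucleotide reductase, was at 95.1, 84.8, 94.3, 88.6, 235.0 and 242.9 CPM in knockout 1 to 6 and at 30.9, 28.2, 31.2, 32.0, 27.7 and 46.7 CPM in control 1 to 6. All 6 knockout libraries were above the highest control, which was control 6. The mean was 140.1 ± 76.7 CPM in the knockout and 32.8 ± 7.01 CPM in the control group (SD, n = 6 each), a log2 difference of 2.09 (SE 0.31; edgeR adjusted p = 0.000216). Rrm1, the large subunit that holds the active site, was at 121.1 to 127.8 CPM in knockout 1 to 4, with 261.8 and 265.1 CPM in knockout 5 and 6, against 69.4 to 72.8 CPM in control 1 to 5 and 99.5 CPM in control 6. Its log2 difference was 1.17 (SE 0.23; edgeR adjusted p = 0.0014), again without overlap. Tk1, the cytosolic thymidine kinase of the salvage pathway, had a lowest, median and highest level of 15.1, 16.6 and 44.8 CPM in the knockout and 12.8, 14.5 and 16.96 CPM in the control group (log2 difference 0.77, SE 0.28; edgeR adjusted p = 0.0431). Its groups overlapped, and knockout 1 to 4 lay within the control range. Tyms, which makes thymidylate from deoxyuridylate, did not pass (median 16.7 CPM in knockout and 15.4 CPM in control libraries).

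Of the S phase entry genes, the cyclins E rose and E2f1 did not pass (21.4% of all tested genes were called higher). Ccne2 was at 12.6, 10.9, 11.71, 11.0, 52.6 and 44.6 CPM in knockout 1 to 6 and at 6.07, 3.99, 4.50, 3.99, 3.26 and 5.79 CPM in control 1 to 6. Every knockout library was above every control library, and knockout 5 and 6 were several times above knockout 1 to 4. The mean was 23.9 ± 19.3 CPM in the knockout and 4.60 ± 1.10 CPM in the control group (SD, n = 6 each), with the highest log2 difference of the 39 genes, 2.38 (SE 0.45; edgeR adjusted p = 0.00123). Ccne1, which shares the partner CDK2 with Ccne2, had a lowest, median and highest level of 26.7, 30.0 and 72.1 CPM in the knockout and 17.002, 18.9 and 25.5 CPM in the control group (log2 difference 1.10, SE 0.27; edgeR adjusted p = 0.00584). E2f1, a transcription factor that activates many replication genes, was at 39.2, 40.7, 44.8, 38.2, 44.3 and 49.5 CPM in knockout 1 to 6 and at 41.5, 44.8, 41.8, 42.4, 43.2 and 52.0 CPM in control 1 to 6. The groups overlapped throughout, control 6 was the highest library, and the log2 difference was -0.05 (SE 0.09; edgeR adjusted p = 0.671).

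**Figure D2:**
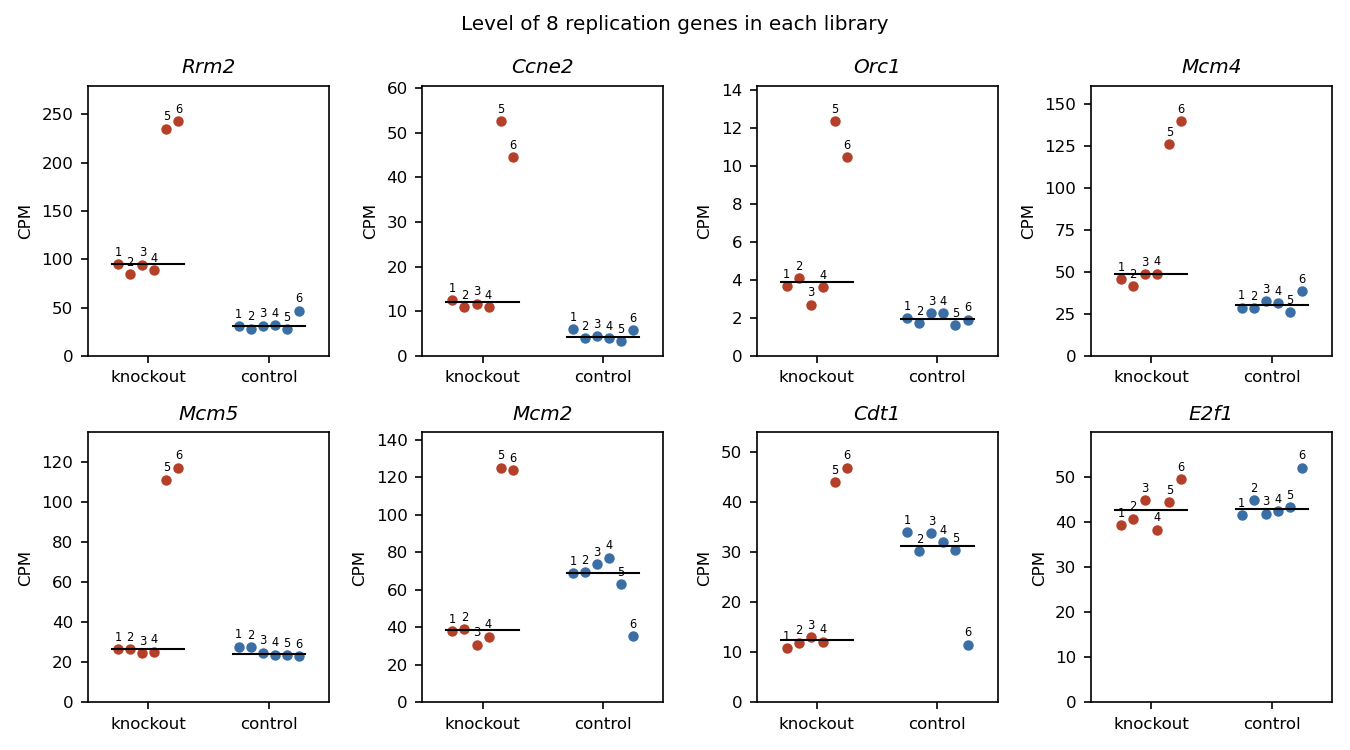
Points give the CPM of 8 genes in the 6 knockout libraries (left in each panel) and the 6 control libraries (right), numbered by library, and lines mark group medians. Rrm2, Ccne2, Orc1 and Mcm4 do not overlap between groups, Mcm5 is high in knockout 5 and 6 alone, and Mcm2 and Cdt1 are low in knockout 1 to 4 and in control 6.

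Of the 10 origin licensing genes, 4 rose, 0 fell and 6 did not pass, against 21.4% higher and 21.6% lower among all tested genes. Orc1, the largest subunit of the origin recognition complex and one whose level follows the cell cycle, was at 3.66, 4.11, 2.69, 3.62, 12.3 and 10.5 CPM in knockout 1 to 6 and at 1.97, 1.73, 2.25, 2.24, 1.63 and 1.91 CPM in control 1 to 6. Its groups did not overlap (log2 difference 1.66, SE 0.37; edgeR adjusted p = 0.00325), although counts were as low as 17. Mcm4 was the one MCM subunit whose groups did not overlap, with a lowest, median and highest level of 41.7, 49.0 and 139.8 CPM in the knockout and 26.2, 30.1 and 38.5 CPM in the control group (log2 difference 1.28, SE 0.31; edgeR adjusted p = 0.00575). Mcm5 was at 24.7 to 26.7 CPM in knockout 1 to 4, with 111.3 and 117.3 CPM in knockout 5 and 6, against 23.0 to 27.8 CPM in the controls (log2 difference 1.14, SE 0.43; edgeR adjusted p = 0.0451). Knockout 1 to 4 lay inside the control range, and the difference was 0.04 (SE 0.07) without knockout 5 and 6.

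The other licensing genes spread from positive to negative. Orc6 had a log2 difference of 0.90 (SE 0.30) and passed. The helicase subunits Mcm3 (0.94), Mcm6 (0.91) and Mcm7 (0.62) did not pass, nor did Cdc6 (0.83), the loading ATPase. Mcm6 was at 46.5 to 52.0 CPM in knockout 1 to 4, with 172.1 and 164.1 CPM in knockout 5 and 6, against 41.1 to 50.4 CPM in the controls. Mcm2 was at 37.9, 39.1, 30.8, 35.0, 125.1 and 123.8 CPM in knockout 1 to 6 and at 69.0, 69.4, 73.6, 77.2, 63.1 and 35.3 CPM in control 1 to 6. Knockout 5 and 6 were above, and knockout 1 to 4 below, control 1 to 5, with control 6 among knockout 1 to 4, and the log2 difference was 0.02 (SE 0.38; edgeR adjusted p = 0.974). Cdt1, the loading factor that geminin inhibits, showed the same order of libraries, with 10.9, 11.9, 12.97, 12.1, 44.0 and 46.9 CPM in knockout 1 to 6, against 34.0, 30.3, 33.9, 32.0, 30.4 and 11.5 CPM in control 1 to 6. Its log2 difference was -0.30 (SE 0.42; edgeR adjusted p = 0.589).

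Promoter windows of 4 licensing genes are shown because they carry words of the E2F binding motif. All 4 transcripts were highest in knockout 5 and 6 and differed in the other libraries. Orc1 did not overlap between groups, Mcm5 and Mcm6 overlapped in knockout 1 to 4, and Cdt1 was low in knockout 1 to 4 and in control 6. The windows run from 250 bases before to 50 bases after the gene start, are taken from RefSeq (GRCm38.p6), and read 5′ to 3′ in the direction of the gene. They lie at chr4:108579204-108579503 (plus strand, Orc1), chr8:75109259-75109558 (plus strand, Mcm5), chr1:128359656-128359955 (minus strand, Mcm6) and chr8:122567765-122568064 (plus strand, Cdt1). Capitals mark the words TTTCCCGC, TTTGGCGC, TTTCGCGC or TTTGCCGC on either strand.
Orc1: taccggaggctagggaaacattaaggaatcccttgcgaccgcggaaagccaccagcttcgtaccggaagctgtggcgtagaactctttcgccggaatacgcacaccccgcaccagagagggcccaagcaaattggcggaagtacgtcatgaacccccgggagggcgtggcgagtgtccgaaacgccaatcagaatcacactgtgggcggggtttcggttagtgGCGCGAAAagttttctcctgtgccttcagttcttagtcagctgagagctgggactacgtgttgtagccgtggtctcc
Mcm5: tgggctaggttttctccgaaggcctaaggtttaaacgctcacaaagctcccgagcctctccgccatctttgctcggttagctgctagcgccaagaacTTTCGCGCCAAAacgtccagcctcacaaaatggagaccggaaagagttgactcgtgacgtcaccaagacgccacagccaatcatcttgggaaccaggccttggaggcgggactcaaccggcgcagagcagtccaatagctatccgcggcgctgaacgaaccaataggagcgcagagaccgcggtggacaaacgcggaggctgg
Mcm6: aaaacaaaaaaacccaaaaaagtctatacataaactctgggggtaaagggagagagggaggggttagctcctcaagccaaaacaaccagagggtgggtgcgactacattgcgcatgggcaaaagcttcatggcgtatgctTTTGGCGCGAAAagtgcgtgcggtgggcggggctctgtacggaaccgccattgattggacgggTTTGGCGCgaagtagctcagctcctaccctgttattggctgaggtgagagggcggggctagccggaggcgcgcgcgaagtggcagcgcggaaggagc
Cdt1: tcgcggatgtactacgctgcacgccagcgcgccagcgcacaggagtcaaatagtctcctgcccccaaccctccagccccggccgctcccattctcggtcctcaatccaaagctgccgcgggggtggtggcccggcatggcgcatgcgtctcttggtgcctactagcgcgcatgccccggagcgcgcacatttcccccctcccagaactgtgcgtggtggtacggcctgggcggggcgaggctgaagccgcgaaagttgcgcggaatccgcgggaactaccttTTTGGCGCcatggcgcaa
The first base of the word lay at position -27 in Orc1, and at 33 in Cdt1, counted in the direction of the gene from its start. Mcm5 held a pair of overlapping words on opposite strands at -153 and -149, and Mcm6 held such a pair at -110 and -106 and a further word at -47. For Mcm5 and Mcm6 the last 25 bases of the window were not found in a GENCODE transcript of the gene, so the start behind their positions is uncertain. A match is a description of the letters and does not show binding.

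Such words were found in 13 of the 32 replication genes that have a promoter window in the table (40.6%), in 4.73% of the 9253 tested genes with a window, and in 2.26% of all 32851 windows. A gene counted as a match where any of its windows held a word. For the other genes of replication described further on the share was 32.5% (13 of 40), for regulators of the G1 to S transition 31.8% (7 of 22), and for mitosis genes 3.33% (1 of 30). The cell cycle homology region (CHR, TTTGAA or TTCGAA on either strand) of mitotic promoters was present in 18.8% of the replication genes (6 of 32) and in 76.7% of the mitosis genes (23 of 30), against 15.9% of the tested genes. Rrm2, Rrm1, Ccne1 and Mcm2 held no such E2F word in these windows, and Ccne2 and Mcm4 have no window in the table. Of the 6 genes without overlap between groups, Orc1 held a word.

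**Figure D3:**
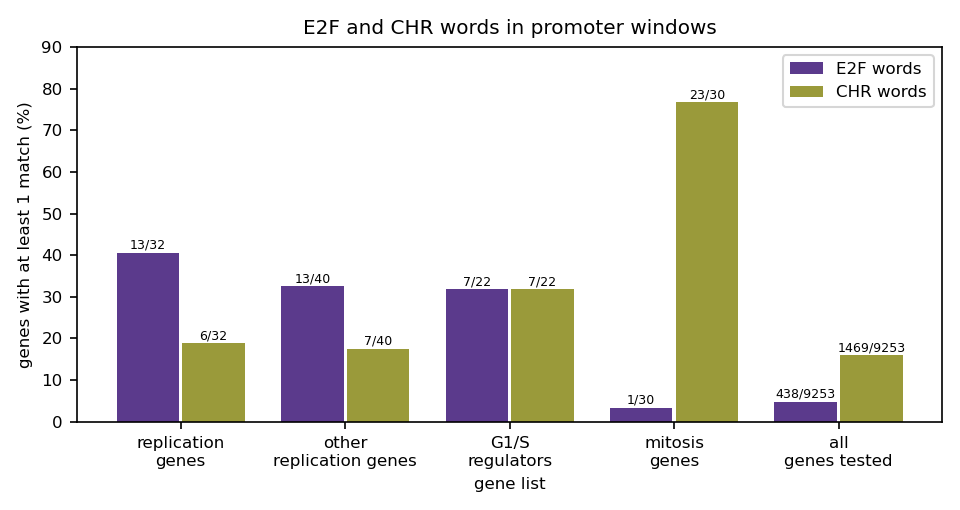
Bars give the percentage of genes in each list whose promoter window holds at least 1 E2F word or CHR word, with the number of matches and of genes with a window above each bar. E2F words stand at 40.6% in the replication genes and 4.73% in all tested genes, and CHR words at 76.7% in the mitosis genes.

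Of the 5 helicase activation genes, edgeR called 0 (4 higher at an unadjusted p under 0.05) and DESeq2 called 3 higher, Mcm10, Gins2 and Gins3. Among all tested genes edgeR called 21.4% higher (25.9% at an unadjusted p under 0.05) and DESeq2 24.1%. Mcm10, which helps to start the helicase, was at 4.92, 3.34, 6.64, 6.71, 25.004 and 23.0 CPM in knockout 1 to 6, against 4.75, 4.97, 5.44, 7.42, 4.81 and 4.26 CPM in control 1 to 6. The groups overlapped apart from knockout 5 and 6 (log2 difference 1.14, SE 0.46; edgeR adjusted p = 0.0584). For Gins1 and Gins3, subunits of the GINS complex, the log2 differences were 0.77 (SE 0.35; edgeR adjusted p = 0.0924) and 0.65 (SE 0.26; edgeR adjusted p = 0.0567). Without knockout 5 the difference for Gins1 was 0.30 (SE 0.22). Gins1 levels were 2.02, 2.64 and 9.13 CPM (lowest, median, highest) in the knockout and 1.59, 2.34 and 2.66 CPM in the control group. Those of Gins3 were 3.16, 4.09 and 8.20 CPM in the knockout and 2.41, 3.61 and 3.92 CPM in the control group. Gins2 (0.64) and Cdc45 (0.40), the helicase cofactor, did not pass either. Cdc45 was at 5.52 to 7.64 CPM in knockout 1 to 4, with 23.9 and 27.3 CPM in knockout 5 and 6, against 8.81 to 12.4 CPM in control 1 to 5 and 5.28 CPM in control 6.

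Among the polymerase genes both primase subunits rose, and the 4 catalytic or accessory polymerase genes did not pass (21.4% of all tested genes were called higher). Prim1, the catalytic primase subunit, was at 6.70, 7.70, 7.28, 7.24, 33.3 and 41.3 CPM in knockout 1 to 6 and at 6.14, 6.78, 6.89, 6.79, 7.10 and 5.28 CPM in control 1 to 6 (log2 difference 1.42, SE 0.48; edgeR adjusted p = 0.0292). Knockout 1 was within the control range and knockout 2, 3 and 4 were at most 7.70 CPM, and without knockout 5 and 6 the gene did not pass (log2 difference 0.15, SE 0.11; edgeR adjusted p = 0.245). Prim2, the regulatory subunit, had a lowest, median and highest level of 13.5, 15.4 and 29.2 CPM in the knockout and 10.6, 11.6 and 13.6 CPM in the control group (log2 difference 0.70, SE 0.20; edgeR adjusted p = 0.0147). Its groups overlapped by knockout 1 and control 6 alone. Pola1, the catalytic subunit of polymerase alpha, was at 11.68, 14.0 and 39.7 CPM in the knockout and 10.7, 11.8 and 14.3 CPM in the control group (0.78, SE 0.30; edgeR adjusted p = 0.0511). Pole, Pold1 and Pola2, of polymerases epsilon, delta and alpha, had log2 differences of 0.68, 0.39 and 0.38.

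Clamp, clamp loader, single-strand binding and Okazaki fragment genes gave 0 calls of 9 with edgeR (5 higher at an unadjusted p under 0.05) and 2 with DESeq2, Rfc3 and Rfc5, with log2 differences of 0.30 (Rfc2) to 0.85 (Rfc5). Shares called higher among all tested genes were 21.4% with edgeR (25.9% at an unadjusted p under 0.05) and 24.1% with DESeq2. Rfc5, a small clamp loader subunit, was at 9.58, 10.7 and 32.5 CPM (lowest, median, highest) in the knockout and 8.82, 9.40 and 10.6 CPM in the control group (log2 difference 0.85, SE 0.32), and missed the edgeR threshold narrowly. Fen1, the nuclease that trims Okazaki fragments, was at 12.4, 16.8 and 55.8 CPM in the knockout and 14.2, 16.0 and 16.5 CPM in the control group (log2 difference 0.82, SE 0.36; edgeR adjusted p = 0.0845). Rfc3 had levels of 7.77, 10.0 and 26.8 CPM in the knockout and 7.91, 8.89 and 9.79 CPM in the control group (log2 difference 0.74, SE 0.31; edgeR adjusted p = 0.0715). In each of these 3 genes knockout 1 to 4 overlapped with the controls, and the highest values were those of knockout 5 and 6. Pcna, the sliding clamp, was at 60.8 to 70.9 CPM in knockout 1 to 4, with 185.7 and 177.9 CPM in knockout 5 and 6, against 64.8 to 70.7 CPM in control 1 to 5 and 50.7 CPM in control 6 (log2 difference 0.68, SE 0.30; edgeR adjusted p = 0.0883). Lig1, the ligase that joins the fragments (0.53), Rpa2 (0.60), Rfc4 (0.58) and Rfc1 (0.34) did not pass.

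Both chromatin copying genes rose, where 21.4% of all tested genes were called higher. Chaf1a, the large subunit of the histone chaperone CAF-1, was at 23.9, 25.4 and 82.4 CPM (lowest, median, highest) in the knockout and 17.3, 19.4 and 25.5 CPM in the control group (log2 difference 1.08, SE 0.34; edgeR adjusted p = 0.0226). Control 6 was above knockout 1 to 4, and control 1 to 5 were below them. Uhrf1, which brings the maintenance DNA methyltransferase to replicated DNA, was at 24.4, 30.4 and 94.8 CPM in the knockout and 21.1, 26.6 and 28.1 CPM in the control group (0.96, SE 0.34; edgeR adjusted p = 0.0381), with overlap. Knockout 1 to 4 were at 24.4 to 32.7 CPM, and without knockout 5 and 6 Uhrf1 did not pass (log2 difference 0.16, SE 0.11; edgeR adjusted p = 0.245).

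Without knockout 5 and 6, calls went in both directions and were no more frequent among the 39 genes than among all tested genes. Rrm2, Ccne2, Orc1, Rrm1, Mcm4, Ccne1, Prim2 and Chaf1a were called higher, all 8 of them among the 13 called with 12 libraries, and Cdt1, Mcm2, Cdc6, Pold1 and Mcm7 were called lower. In this comparison of 4 knockout with 6 control libraries, 24.5% of the 12471 tested genes were called higher and 27.5% lower. Rrm2 had a log2 difference of 1.46 (SE 0.13; edgeR adjusted p = 1.31e-05) and Cdt1 one of -1.26 (SE 0.27; edgeR adjusted p = 0.00255). Mcm2 was at -0.85 (SE 0.19; edgeR adjusted p = 0.00347). The knockout group is here 1 set of libraries, so these SEs and p-values do not measure the spread between knockout sets. The median over the 39 genes was 0.04, against -0.01 over all tested genes. When control 6 was left out as well, 8 genes were called higher and 7 lower (34.9% and 36.4% of all tested genes), with Cdc45 and Rpa2 added to the lower ones. In that comparison each group is 1 set of libraries, and genotype and set cannot be told apart.

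The 6 genes whose knockout 1 to 4 libraries were all above the 6 controls were the same 6 that did not overlap over 12 libraries, and no gene had knockout 1 to 4 all below the 6 controls (15.9% and 16.7% of all tested genes). Against control 1 to 5 alone, knockout 1 to 4 were all above in 8 genes, the same 6 with Prim2 and Chaf1a, and all below in 5 genes, Cdt1, Mcm2, Mcm7, Cdc45 and Rpa2. Over all tested genes these shares were 29% and 30.8%, so non-overlap was no more frequent among the 39 genes. Control 6 was the lowest of the controls in 20 of the 39 genes and the highest in 9. The 9 were Rrm2, Rrm1, Ccne1, Mcm4, Prim2, Chaf1a, Pole, Lig1 and E2f1, so Ccne2 and Orc1 were not among them. Among the 20 were Cdt1, Mcm2, Mcm7, Cdc45, Cdc6 and Rpa2. The 20 also held Mcm3, Mcm5, Mcm6, Pcna and Fen1, which were not called without knockout 5 and 6. Control 6 was lowest in 28 and highest in 8 of the 50 other replication genes described further on. The counts were 9 and 13 for the 31 regulators of the G1 to S transition, and 10 and 7 for the 35 mitosis genes. Over all tested genes these shares were not counted.

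**Figure D4:**
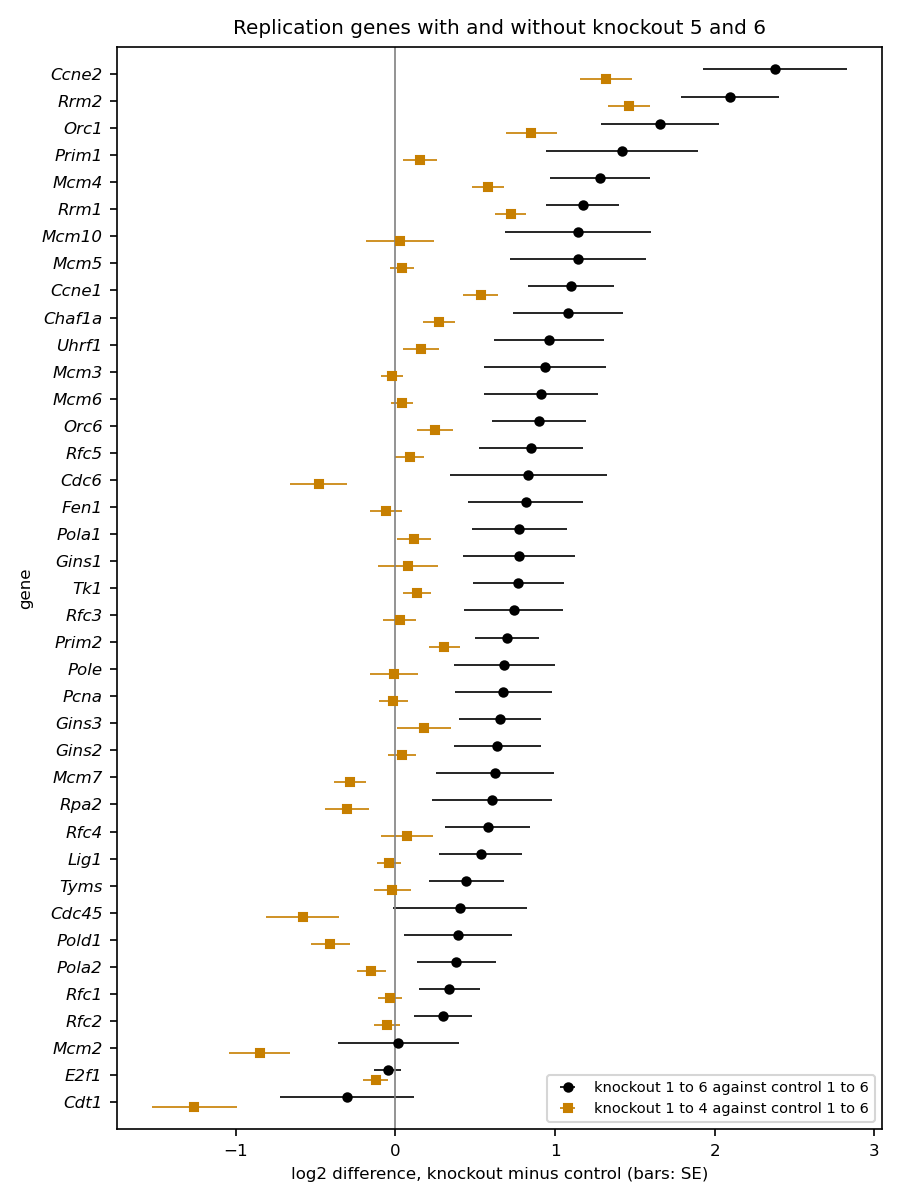
Points give the log2 difference (knockout minus control) of each gene with its SE, in black for 6 knockout and 6 control libraries and in orange for knockout 1 to 4 and the 6 control libraries. Without knockout 5 and 6 the median gene lies at 0.04, Rrm2 lies at 1.46 and Cdt1 lies at -1.26.

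Ratios of counts within a library, which do not depend on how libraries are scaled, were compared for 3 sets of partners. Rrm2 had 0.785, 0.664, 0.741, 0.706, 0.898 and 0.916 counts per Rrm1 count in knockout 1 to 6, and 0.429, 0.407, 0.446, 0.440, 0.384 and 0.469 in control 1 to 6. The groups did not overlap, and the log2 ratio was higher by 0.86 in the knockout (mean -0.36 ± 0.19 in the knockout and -1.22 ± 0.10 in the control group, SD, n = 6 each; two-sided exact permutation test, p = 0.00216, the smallest that the splits allow, adjusted over 3 ratios p = 0.00325). Ccne2 had a lowest, median and highest ratio to Ccne1 of 0.340, 0.445 and 0.788 in the knockout and 0.168, 0.231 and 0.322 in the control group, again without overlap (log2 difference 1.08; exact permutation p = 0.00216, adjusted p = 0.00325). For the summed small clamp loader subunits Rfc2 to Rfc5 against the large subunit Rfc1 the ratio was 0.890, 1.201 and 1.46 in the knockout and 0.989, 1.06 and 1.17 in the control group, with overlap (log2 difference 0.15; exact permutation p = 0.212, adjusted p = 0.212). It passed when knockout 4, the lowest library, was left out (Rfc2 to Rfc5 sum to Rfc1 log2 ratio, difference 0.24; exact permutation test, adjusted p = 0.0455). Without knockout 5 and 6 the difference was 0.75 for the Rrm2 to Rrm1 log2 ratio and 0.82 for the Ccne2 to Ccne1 log2 ratio (exact permutation test, adjusted p = 0.00714 each). Before adjustment these p-values were the smallest that the splits allow. The knockout group is then 1 set of libraries, so they do not measure the spread between knockout sets.

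**Figure D5:**
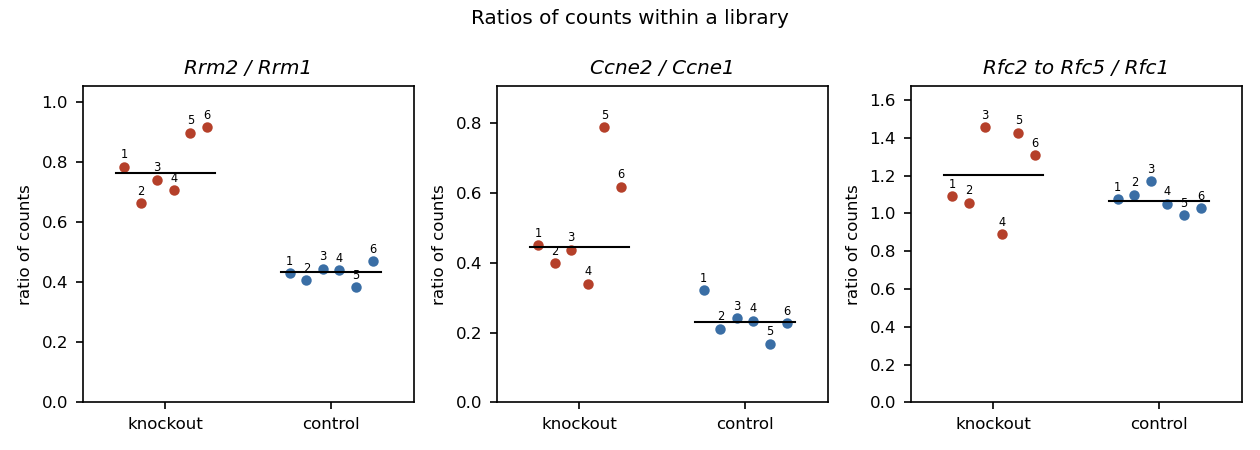
Points give the ratio of counts in each library, numbered, with the 6 knockout libraries on the left and the 6 control libraries on the right of each panel and lines at the medians. Rrm2 to Rrm1 and Ccne2 to Ccne1 do not overlap between groups, and the clamp loader ratio does.

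Other replication genes, 50 genes outside the 39, gave 19 higher, 1 lower and 30 not past the test, with a median log2 difference of 0.44. Shares over all tested genes were 21.4% higher and 21.6% lower. Rpa1, the large subunit of the single-strand binding protein, was at 111.5, 112.4 and 183.2 CPM (lowest, median, highest) in the knockout and 67.5, 69.4 and 81.1 CPM in the control group (log2 difference 0.92, SE 0.15; edgeR adjusted p = 0.000372). Orc4, another origin recognition subunit, was at 47.6, 53.7 and 70.2 CPM in the knockout and 26.5, 37.9 and 40.0 CPM in the control group (0.64, SE 0.12; edgeR adjusted p = 0.00107). Neither gene overlapped between groups. Pold4, the smallest subunit of polymerase delta, was the lower one, at 20.3, 29.5 and 37.0 CPM in the knockout and 36.5, 40.0 and 43.3 CPM in the control group (-0.50, SE 0.13; edgeR adjusted p = 0.00859). Without knockout 5 and 6, 9 of these 50 were higher and 13 lower, near or below the shares of all tested genes (24.5% and 27.5%).

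Of 31 regulators of the G1 to S transition, 15 rose, 3 fell and 13 did not pass, with a median of 0.40. Among all tested genes 21.4% were called higher and 21.6% lower. The E2F family member E2f3 was at 43.0, 47.3 and 55.1 CPM in the knockout and 33.4, 34.4 and 41.8 CPM in the control group (0.46, SE 0.09; edgeR adjusted p = 0.00139), without overlap. Cdk6, a kinase that works with D-type cyclins, was at 7.12, 8.95 and 11.3 CPM in the knockout and 3.67, 5.13 and 7.19 CPM in the control group (0.81, SE 0.17; edgeR adjusted p = 0.00264), with a small overlap. The repressors E2f7 (2.05), E2f8 (1.28) and E2f6 (0.82) were among the genes called higher (log2 differences), while the inhibitor Cdkn1a (0.19) did not pass. The genes called lower were Cdkn2c, Rbl2 and Cdkn1b. Cdkn2c, an inhibitor of CDK4 and CDK6, was at 10.6, 11.8 and 13.2 CPM in the knockout and 16.2, 17.1 and 18.8 CPM in the control group (-0.54, SE 0.08; edgeR adjusted p = 0.000309). Rbl2, a retinoblastoma family protein of resting cells, was at 18.2, 25.3 and 34.9 CPM in the knockout and 34.9, 37.9 and 39.4 CPM in the control group (-0.54, SE 0.13; edgeR adjusted p = 0.00646), and its groups only just did not overlap. Cdkn1b, an inhibitor of cyclin-dependent kinases, was at 13.6, 26.4 and 26.9 CPM in the knockout and 23.0, 42.5 and 45.4 CPM in the control group (-0.82, SE 0.21; edgeR adjusted p = 0.00694), with overlap. Without knockout 5 and 6, 13 of the 31 were higher and 5 lower (24.5% and 27.5% of all tested genes).

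Of 35 mitosis genes, 25 rose, 0 fell and 10 did not pass, with a median of 0.73. By the same test 21.4% of all tested genes were higher and 21.6% lower. Anln, a scaffold of the cleavage furrow, was at 87.2, 100.4 and 137.3 CPM in the knockout and 39.3, 46.7 and 65.3 CPM in the control group (1.19, SE 0.15; edgeR adjusted p = 8.19e-05). Kif20a, a kinesin of cytokinesis, was at 36.2, 41.0 and 53.1 CPM in the knockout and 23.7, 27.1 and 33.5 CPM in the control group (0.64, SE 0.11; edgeR adjusted p = 0.000708). In 15 of the 35 mitosis genes every knockout library was above every control library, against 6 of the 39 replication genes and 10.6% of all tested genes; the difference between these counts was not tested. Without knockout 5 and 6, 16 of the 35 were higher and 1 lower, against 24.5% and 27.5% of all tested genes. Summed levels of mitosis genes were 835.9 to 888.4 CPM in knockout 1 to 4, with 1652 and 1720 CPM in knockout 5 and 6, against 611.7 to 739.6 CPM in the controls.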

How the data were processed

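The authors deposited expected counts per gene symbol, estimated reads that need not be whole; RSEM 1.2.15 and Bowtie2 2.1.0 are named per the submitters' processing notes. Those notes name a human build while the symbols are mouse, so no coordinates are tied to the counts; the sources used here do not state the annotation or strand setting. Reads shared by near-identical copies are therefore uncertain. Libraries were poly(A)-selected and strand-specific with dUTP, as the labels' protocols say. Values with decimals (2.67% to 3.48% per library) were rounded.

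Groups and replicate numbers came from the titles. Genotype was the only term in the edgeR 4.0.16 quasi-likelihood test (R 4.3.3) after filterByExpr (minimum count 10, total 15) and TMM scaling. Adjustment was Benjamini-Hochberg over all 12146 tested genes, threshold 0.05. The SE is the log2 difference divided by the root of F. Ratios were tested by exact two-sided permutation of the group labels, adjusted over the 3 ratios. Promoter windows were RefSeq's (32 of 39 genes matched by symbol), searched for exact words. Scripts were tested on simulated counts. The simulated libraries were drawn independently, without sets of like libraries, so this does not test the p-values where such sets exist. Alternatives were other scalings and filters, DESeq2 1.42.0, limma-voom 3.58.1, a replicate block, libraries left out and 4 summed sets.

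The 39 genes and the other lists were chosen with earlier results of these data known. In full are given the 3 genes of each role with the largest log2 differences; the others named, among them Mcm2, Cdt1, Cdc45 and Pcna, were given per library after their values were seen, and the promoters printed were chosen in the same way. From the other lists, the 2 called genes with the smallest adjusted p in each direction are named; Cdkn1b, Cdkn1a, E2f6, E2f7 and E2f8 were named after their values were seen.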

Additional observations from a re-analysis of the deposited data

Results flagged for a closer look

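In groups of 6, the library at one end of the range was set apart by a share of that range above Dixon's 95% critical value in 11 cases among the 39 genes and 3 ratios; chance gives about 1 in 20 groups. In 9 of them the library was control 6. It was below the other controls for Mcm2 (35.3 CPM, others 63.1 to 77.2), Mcm7 (32.9 CPM, others 43.0 to 48.5), Pcna (50.7 CPM, others 64.8 to 70.7), Cdt1 (11.5 CPM, others 30.3 to 34.0) and Rfc4 (4.07 CPM, others 6.18 to 6.45). It was above them for Rrm1 (99.5 CPM, others 69.4 to 72.8), Rrm2 (46.7 CPM, others 27.7 to 32.0), Ccne1 (25.5 CPM, others 17.002 to 19.4) and E2f1 (52.0 CPM, others 41.5 to 44.8). The remaining cases were Mcm10 in control 4 (7.42 CPM, others 4.26 to 5.44) and Gins1 in knockout 5 (9.13 CPM, others 2.02 to 4.24). This rule looks at the gap beside the end library alone. Knockout 5 and 6 lay high together in 38 of the 39 genes, so it could seldom flag either of them.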

How the results depend on the processing

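The count of 13 replication genes called higher was 21 with the DESeq2 test, 7 with limma-voom, 8 with the replicate block, 8 without knockout 5 and 6, 8 without knockout 5, knockout 6 and control 6, and 0 in the fit to 4 summed sets of libraries (edgeR, smallest adjusted p 0.613; 8 higher and 0 lower at an unadjusted p under 0.05), which has fewer samples. It was 7 to 21 when a library was left out: 7 without knockout 5 or 6, 20 or 21 without knockout 1, 2, 3 or 4, 8 without control 3, and 9 to 11 without another control. The lower count of 0 became 5 and 7 in the fits without knockout 5 and 6 and also without control 6. Rrm2, Rrm1, Ccne2, Ccne1, Orc1, Mcm4 and Prim2, 7 genes, were called higher in all 21 alternatives other than the summed sets. Over all tested genes, 2597 higher and 2622 lower became 4319 and 4508 without knockout 5, knockout 6 and control 6, and 0 and 0 in the summed sets (edgeR; 438 and 609 at an unadjusted p under 0.05). The share of all tested genes called higher was 24.1% with DESeq2, 20.7% with limma-voom and 15.4% with the replicate block. It was 24.5% (27.5% lower) without knockout 5 and 6, and 34.9% (36.4% lower) without control 6 as well. With 1 library left out, 2148 of 12151 (control 2) to 3092 of 12173 (control 6) tested genes were higher. Without knockout 5 it was 2456 of 12355, and without knockout 6 2494 of 12358.

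Signs changed without knockout 5 and 6 for Mcm2 -0.85, Mcm3 -0.0216, Mcm7 -0.29, Pcna -0.0136, Tyms -0.0204, Cdc6 -0.48, Cdc45 -0.58, Pola2 -0.15, Pold1 -0.41, Pole -0.0093, Rfc1 -0.0363, Rfc2 -0.0554, Rpa2 -0.30, Lig1 -0.0392, Fen1 -0.0579 (log2 differences). Without control 6 as well they changed for Mcm2 -0.97, Mcm3 -0.0517, Mcm7 -0.35, Mcm10 -0.0296, Pcna -0.0784, Tyms -0.0730, Cdc6 -0.58, Gins1 -0.0153, Cdc45 -0.71, Pola2 -0.16, Pold1 -0.46, Rfc1 -0.0365, Rfc2 -0.0648, Rfc3 -0.0014, Rfc4 -0.0268, Rpa2 -0.38, Lig1 -0.0227, Fen1 -0.0921. The Mcm2 log2 difference was -0.0218 with library totals, -0.19 with limma-voom, -0.25 with the replicate block, and -0.27 to 0.16 with a library left out. E2f1 was at -0.094 to 0.003 with a library left out, and Cdt1 at 0.38 in the summed sets. The difference in the Rfc2 to Rfc5 sum to Rfc1 log2 ratio was 0.0945 to 0.2365 with a library left out, and passed without knockout 4 (adjusted p = 0.0455, exact permutation test). The cause was not tested.

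Same-numbered libraries correlated at -0.36 to 0.18 in their deviations from the group means and none matched best with its own number. Those deviations hold the large differences between sets of libraries, so they cannot decide whether the numbers pair libraries. Depth bears most on Orc1, Gins1 and Gins3, with 17 to 20 counts in their lowest libraries.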
